A study of Homo sapiens with 9 samples.

Results

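The genes described here encode the SLC25 mitochondrial carrier family, the set of transport proteins that move metabolites, nucleotides, cofactors and ions between the cytosol and the mitochondrial matrix. They were taken as the rows of the authors' filtered log2 FPKM matrix that are typed as protein coding and whose symbol starts with SLC25A. This gave 41 genes of 18859 in the matrix, of which 13801 were protein coding. The RNA came from ACHN, an established human renal cell carcinoma line grown as an adherent culture in MEM medium. The 3 groups of 3 libraries were cells given 0.1% DMSO, cells given 25 nM piericidin A and cells given 50 nM piericidin A. All groups were the same single cell line, and it is not stated whether DMSO was also present in the piericidin A wells. The duration of treatment is not given in the sources used here. Because no label ties the 3 samples of each group to separate cultures, p-values below measure only the spread between those samples, which may be technical.

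Piericidin A blocks respiratory complex I, the enzyme that takes electrons from NADH in the matrix and passes them to ubiquinone. The carriers set what the matrix can exchange with the cytosol: ADP and phosphate for making ATP, aspartate, glutamate and oxoglutarate for the shuttle that brings reducing equivalents in, and iron, folate, NAD and nucleotides for the enzymes and the genome inside. Most sit in the inner membrane. SLC25A17 is a peroxisomal carrier and SLC25A46 belongs to the outer mitochondrial membrane, so the family name does not fix the location.

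The values are FPKM, fragments scaled to gene length and library size, as computed by the authors. They were recovered as whole fragments, 24365472 to 29245674 per library. The library size behind the authors' values was not this total, and how it was set is not given in the sources used here. Scaling to the fragment totals multiplies FPKM by 0.988 to 0.999 with DMSO. The factor is 0.957 to 0.988 at 25 nM and 1.03 to 1.06 at 50 nM, so it differs between groups. Fragments from the mitochondrial genome made up 2.32% to 2.65% of the DMSO libraries, 3.82% to 5.11% at 25 nM and 5.2% to 6.84% at 50 nM, and the part of this shift in the results below was not tested. Replicate 3 at 25 nM stood apart from the others of its group: chi-square per degree of freedom over genes was 17.2 and 19.6 against them, and 2.48 between those 2. Of 7 renal epithelial markers, 6 were measured, and their summed level was 684 to 699 FPKM with DMSO, 582 to 631 FPKM at 25 nM and 525 to 546 FPKM at 50 nM. PAX8, a transcription factor of the renal lineage, had 71.3, 67.0 and 87.9 FPKM as group means, while the keratin gene KRT19 had 306.5, 229.9 and 191.9 FPKM and the receptor gene MET 147.9, 110.7 and 88.9 FPKM. KRT19 and MET were called lower at both doses. Other markers of this list went the other way: PAX8 and PAX2 were called higher at 50 nM, and KRT8 at 25 nM. Of the 6 markers, 1 was thus called higher and 2 lower at 25 nM, and 2 higher and 2 lower at 50 nM. The 10 measured markers of leukocytes, endothelium and fibroblasts summed to 2.56 to 2.66 FPKM with DMSO, 2.34 to 2.72 FPKM at 25 nM and 3.18 to 4.09 FPKM at 50 nM. Of these, 2 were tested, and they moved in opposite directions. COL1A1, a collagen gene of fibroblasts, was called higher at 50 nM (limma, log2 fold change 0.71, adjusted p = 0.000368). PDGFRB, another fibroblast marker, was called lower at 25 nM and 50 nM (limma, log2 fold change -0.66 and -0.76, adjusted p = 0.03 and 0.014). The part of these shifts in the results was not tested. In bulk RNA of this kind, fewer cells and less RNA per cell cannot be told apart.

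Levels of the carriers differed widely in DMSO, led by carriers of adenine nucleotides and phosphate. SLC25A5, the main ADP/ATP carrier of dividing cells, had 161 ± 3.87 FPKM (SD, n = 3), SLC25A6, another ADP/ATP carrier, 129 ± 1.78 FPKM, and SLC25A3, the phosphate carrier, 93.8 ± 0.601 FPKM. Together these 3 genes held 55.8% of the family's summed FPKM with DMSO, 58.6% at 25 nM and 54.9% at 50 nM. SLC25A39, a glutathione carrier, with 35.1 ± 0.345 FPKM, and SLC25A37, mitoferrin-1, which brings iron into the matrix, with 31.9 ± 0.42 FPKM, came next. In DMSO 12 members reached 10 FPKM or more and 7 were under 1 FPKM, with a median member at 5.34 FPKM. SLC25A39 and SLC25A37 differed by more than their spread with DMSO, while SLC25A37 and SLC25A1, the citrate carrier at 30.7 ± 1.07 FPKM, overlapped. The same 4 genes led in every group, and at 25 nM SLC25A1 took the fifth place.

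**Figure D1:**
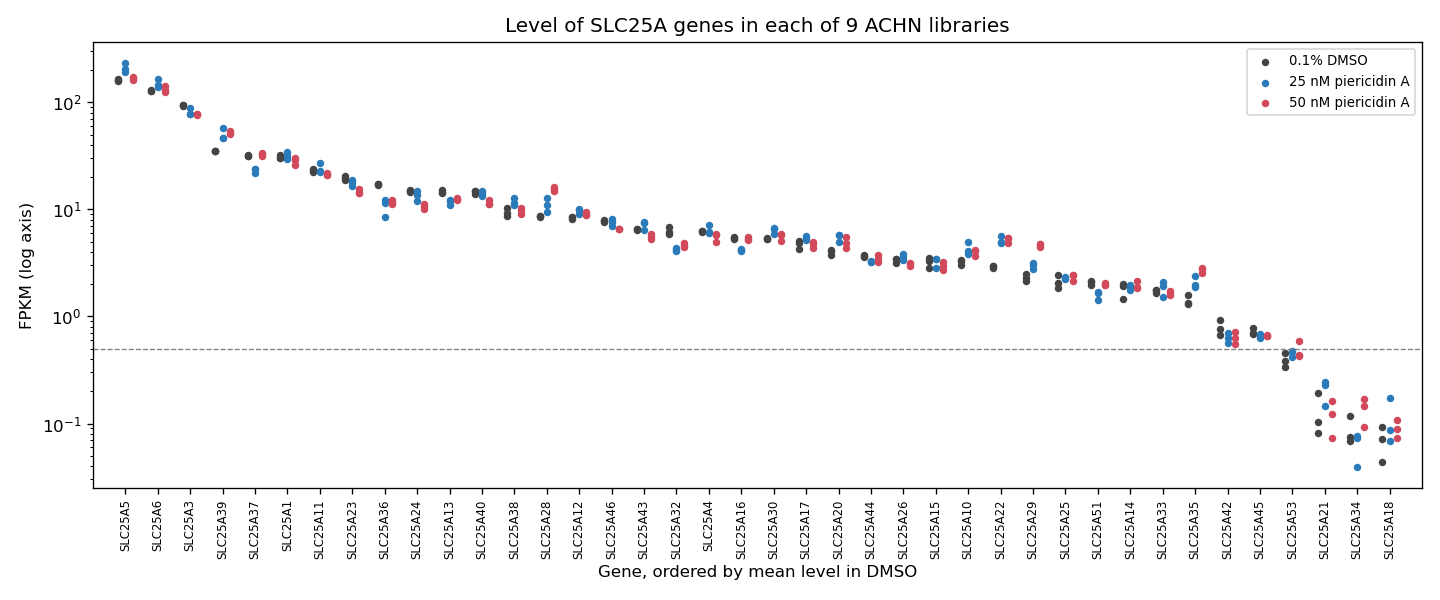
FPKM (log axis) of SLC25A genes in each of 9 libraries, ordered by their mean with DMSO, with points coloured by treatment and a dashed line at 0.5 FPKM, the minimum for testing. The order runs from SLC25A5 at 161 ± 3.87 FPKM to 4 genes that lie mostly under the line.

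Of the 41 genes, 37 had at least 0.5 FPKM in at least 3 libraries and were tested. Below, a value followed by an SE and an adjusted p is a log2 fold change on the log2(FPKM + 0.1) scale from limma, and levels with ± are group means with SD (n = 3), with DMSO, at 25 nM and at 50 nM in that order. The other 4 genes are given by their levels only. SLC25A53, a carrier with no settled substrate, had 0.394 ± 0.0581, 0.454 ± 0.0294 and 0.485 ± 0.0918 FPKM with DMSO, at 25 nM and at 50 nM. SLC25A21, the oxoadipate carrier, had 0.125 ± 0.058, 0.206 ± 0.0523 and 0.119 ± 0.0441 FPKM in the same order. SLC25A34, another carrier with no settled substrate, had 0.0871 ± 0.0259, 0.0625 ± 0.0205 and 0.135 ± 0.0396 FPKM, and SLC25A18, a glutamate carrier better known from brain, 0.0693 ± 0.0251, 0.109 ± 0.0548 and 0.0905 ± 0.0176 FPKM. With 3 to 30 fragments per library, the last 3 genes allow no statement on a difference.

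At 25 nM, 22 of the 37 tested carriers differed from DMSO, 14 higher and 8 lower (limma, adjusted p under 0.05). Over all 15541 genes tested 52% were called in this comparison, and over the 11722 protein-coding genes 59.5%, so the carriers were called about as often as other coding genes. The share called higher was 26.3% of all genes and 28% of coding genes, and the share called lower 25.8% and 31.6%. The median log2 fold change of the carriers was 0.07, beside 0.02 over all genes and -0.02 over coding genes. In 22 carriers the libraries of the 2 groups did not overlap, as in 62.6% of all genes and 70.7% of coding genes. Without replicate 3 at 25 nM, 13 were higher and 8 lower.

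At 50 nM, 17 of the 37 differed from DMSO, 8 higher and 9 lower, beside a background of 60.7% of all genes and 65.6% of coding genes called. The background called higher was 29.2% and 25.7%, and called lower 31.5% and 39.9%. The carriers' median log2 fold change was -0.05, beside 0.00 over all genes and -0.09 over coding genes. The groups did not overlap in 22 carriers, beside 70.4% and 75.9% in the background. With the pseudocount of 0.1, no carrier changed by 1 or more on the log2 scale at either dose. SLC25A29 came nearest, with 0.97 at 50 nM, and its value ran from 0.767 to 1.06 over the 14 alternatives.

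Between the doses, 15 of the 37 differed, 6 higher and 9 lower at 50 nM, with 33.5% of all genes and 37.5% of coding genes called. The background called higher was 14.7% and 13.2%, and called lower 18.8% and 24.3%. The median was -0.09, beside -0.01 over all genes and -0.06 over coding genes, and 20 carriers did not overlap, beside 45.4% and 49.3%. This split depended on scaling: with libraries scaled by their fragment totals, 8 were higher and 4 lower. That scaling also moved the counts over all genes, from 2288 higher and 2917 lower to 3153 higher and 1358 lower of 15541. Without replicate 1 at 50 nM, 5 were higher and 5 lower. Both doses were set against the same 3 DMSO libraries, so their values are given side by side and not correlated.

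**Figure D2:**
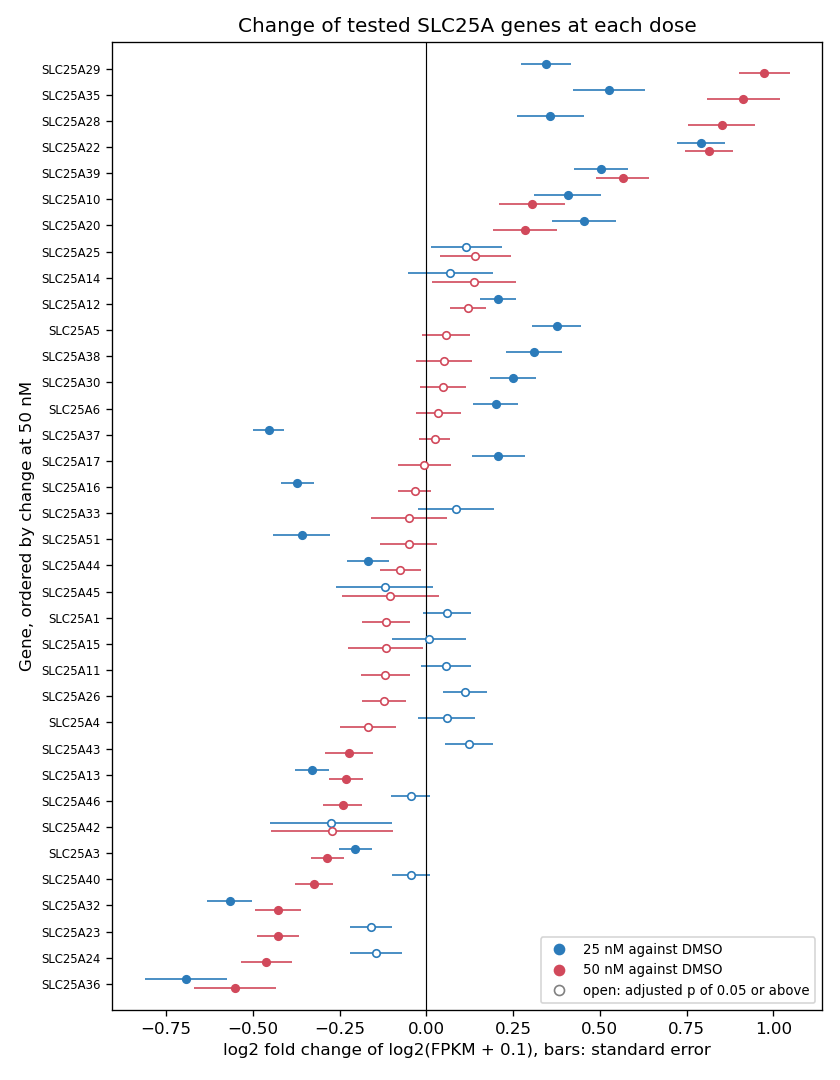
Log2 fold changes on the log2(FPKM + 0.1) scale, with SE bars from limma, for tested SLC25A genes at 25 nM and 50 nM piericidin A against DMSO; filled points have an adjusted p under 0.05. SLC25A29, SLC25A35 and SLC25A28 lie farther from 0 at 50 nM than at 25 nM, while SLC25A37, SLC25A16 and SLC25A51 are lower at 25 nM and near 0 at 50 nM.

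The 4 carriers that the account below turns on are SLC25A22, SLC25A28 and SLC25A29, which rose, and SLC25A36, which fell. Their start regions are shown because members that moved together can then be compared by letter. The windows run from 250 bases before to 50 after the start site in RefSeq (GRCh38.p14), 5′ to 3′ on the strand of the gene. They lie at chr11:798232-798531 on the minus strand for SLC25A22, at chr10:99620390-99620689 on the minus strand for SLC25A28, at chr14:100306395-100306694 on the minus strand for SLC25A29 and at chr3:140941586-140941885 on the plus strand for SLC25A36. Capitals mark matches to 5 motifs searched on both strands: GGGCGG (GC box), CACGTG (E-box), TGACGTCA (cAMP response element) and ACTTCCGG (ETS), and the NRF1 consensus.
SLC25A22: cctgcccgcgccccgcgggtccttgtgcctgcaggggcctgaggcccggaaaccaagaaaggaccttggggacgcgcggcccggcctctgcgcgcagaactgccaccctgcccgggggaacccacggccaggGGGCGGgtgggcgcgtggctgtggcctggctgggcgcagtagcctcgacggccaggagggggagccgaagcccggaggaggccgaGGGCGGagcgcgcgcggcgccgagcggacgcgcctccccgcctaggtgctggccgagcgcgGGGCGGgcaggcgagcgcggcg
SLC25A28: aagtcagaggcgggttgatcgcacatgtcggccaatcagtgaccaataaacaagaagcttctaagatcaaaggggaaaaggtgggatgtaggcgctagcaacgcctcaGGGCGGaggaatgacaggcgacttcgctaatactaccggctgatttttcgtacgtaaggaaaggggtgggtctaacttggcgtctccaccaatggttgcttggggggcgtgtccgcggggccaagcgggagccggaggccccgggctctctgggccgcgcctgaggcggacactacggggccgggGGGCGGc
SLC25A29: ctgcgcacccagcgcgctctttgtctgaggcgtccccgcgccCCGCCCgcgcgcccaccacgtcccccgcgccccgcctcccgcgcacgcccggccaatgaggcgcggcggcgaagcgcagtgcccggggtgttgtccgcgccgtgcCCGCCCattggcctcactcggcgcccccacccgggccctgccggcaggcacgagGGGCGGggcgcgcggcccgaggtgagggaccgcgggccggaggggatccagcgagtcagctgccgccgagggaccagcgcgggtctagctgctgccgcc
SLC25A36: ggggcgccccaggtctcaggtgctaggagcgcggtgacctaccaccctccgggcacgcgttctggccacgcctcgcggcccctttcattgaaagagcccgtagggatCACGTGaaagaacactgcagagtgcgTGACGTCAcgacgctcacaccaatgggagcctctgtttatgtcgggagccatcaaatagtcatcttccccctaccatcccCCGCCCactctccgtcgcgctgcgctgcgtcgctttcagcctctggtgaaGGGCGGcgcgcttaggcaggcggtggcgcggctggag
All 4 windows hold a GC box, and in these 4 no motifs overlapped one another. SLC25A36 also holds an E-box and a cAMP response element. GC content was 79% in SLC25A22, 61% in SLC25A28, 80% in SLC25A29 and 64.7% in SLC25A36. A window was found for 35 of the 41 carriers. Where a carrier had several, only the window nearest the gene start in the authors' table was kept. Other genes kept all their windows, so the counts and shares that follow are of unlike sets. The GC box was in 26 of these 35 and in 45.0% of all 34952 windows, the E-box in 6 and 7.26%, the NRF1 motif in 3 and 5.80%, the ETS motif in 3 and 4.14%, and the cAMP response element in 2 and 1.85%. Those 2 were SLC25A36 and SLC25A33, both pyrimidine nucleotide carriers, of which the second was called in no comparison. Both also hold an E-box. The other carriers with an E-box were SLC25A38, called higher at 25 nM, and SLC25A13, SLC25A46 and SLC25A51, each called lower against DMSO. A match describes the letters of the window and does not show a bound site.

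Among carriers of adenine nucleotides and phosphate, SLC25A5 and SLC25A6 rose at 25 nM and did not pass the test at 50 nM, and SLC25A3 fell at both doses. SLC25A5 measured 163, 157 and 164 FPKM in the DMSO libraries, 203, 192 and 235 at 25 nM and 162, 173 and 168 at 50 nM. All 25 nM libraries were above all others, and the 50 nM libraries overlapped those with DMSO. The log2 fold change was 0.38 (SE 0.07, adjusted p = 0.00178) at 25 nM, 0.06 (SE 0.07, adjusted p = 0.507) at 50 nM and -0.32 (SE 0.07, adjusted p = 0.00803) between the doses. SLC25A6 measured 131, 127 and 129 FPKM with DMSO, 144, 139 and 164 FPKM at 25 nM and 126, 140.4 and 131 FPKM at 50 nM. Its fold change was 0.20 (SE 0.07, adjusted p = 0.0285) at 25 nM and 0.04 (SE 0.07, adjusted p = 0.661) at 50 nM, and between the doses -0.16 (SE 0.07, adjusted p = 0.0813). The call at 25 nM was lost without DMSO replicate 1, 2 or 3 (adjusted p = 0.0591, 0.0821 and 0.0744), and the fold change fell to 0.13 without replicate 3 at 25 nM. SLC25A6 lies in the pseudoautosomal region, so hg38 holds a copy on another chromosome, and no source used here says how the counting treated it.

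SLC25A4, the ADP/ATP carrier of heart and muscle, measured 6.09, 6.24 and 6.23 FPKM in the DMSO libraries, 6.04, 6.21 and 7.15 at 25 nM and 4.92, 5.73 and 5.89 at 50 nM. These levels were a small part of the ADP/ATP carriers and no comparison called a difference, with log2 fold changes of 0.06 (SE 0.08, adjusted p = 0.573) and -0.17 (SE 0.08, adjusted p = 0.101). SLC25A5 made up 54.3% ± 0.434 (SD, n = 3) of the summed FPKM of the 3 ADP/ATP carriers with DMSO, 57.4% ± 0.449 at 25 nM and 54.9% ± 0.609 at 50 nM. Their sum was 296 ± 5.22 FPKM, 365 ± 36 FPKM and 305 ± 13 FPKM in the same order. The 25 nM libraries of SLC25A5 ranged widely, with replicate 3 the highest.

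SLC25A3 supplies the matrix with phosphate for ATP synthesis and is also known to carry copper. It measured 94.4, 93.2 and 93.7 FPKM in the DMSO libraries, 78.2, 78.5 and 87.8 at 25 nM and 75.4, 77.2 and 78.2 at 50 nM. Every treated library was below every DMSO library, with -0.20 (SE 0.05, adjusted p = 0.00655) at 25 nM and -0.29 (SE 0.05, adjusted p = 0.000817) at 50 nM. The difference between the doses did not pass the test, at -0.08 (SE 0.05, adjusted p = 0.226). With libraries centred on the median of coding genes the 25 nM value was -0.12 (adjusted p = 0.0735).

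The ATP-Mg/phosphate carriers exchange ATP-Mg for phosphate under the control of calcium and so set the total adenine nucleotide content of the matrix. SLC25A23 measured 20.5, 18.8 and 19.8 FPKM in the DMSO libraries, 16.5, 17.5 and 19 at 25 nM and 14.1, 15.4 and 14.4 at 50 nM. SLC25A24 measured 14.4, 14.9 and 15.1 FPKM with DMSO, 13.5, 14.8 and 11.9 FPKM at 25 nM and 10.1, 11.2 and 10.8 FPKM at 50 nM. SLC25A25 measured 1.86, 2.04 and 2.45 FPKM in the DMSO libraries, 2.24, 2.31 and 2.31 at 25 nM and 2.44, 2.44 and 2.13 at 50 nM. In the first 2 genes the 50 nM libraries lay below all others, and in SLC25A25 the groups overlapped. SLC25A23 changed by -0.43 (SE 0.06, adjusted p = 0.000279) at 50 nM and by -0.27 (SE 0.06, adjusted p = 0.00943) between the doses, and its value at 25 nM was -0.16 (SE 0.06, adjusted p = 0.0531). SLC25A24 changed by -0.46 (SE 0.07, adjusted p = 0.0006) at 50 nM and by -0.32 (SE 0.07, adjusted p = 0.0113) between the doses, the second of which had an adjusted p of 0.0699 when scaled by fragment totals. At 25 nM SLC25A24 had -0.14 (SE 0.07, adjusted p = 0.133). AL359258.2, on the opposite strand, covers 13.7% of the exon bases of SLC25A24 and is not among the genes analysed here. SLC25A25 had 0.12 (SE 0.10, adjusted p = 0.368) and 0.14 (SE 0.10, adjusted p = 0.252) at the 2 doses. Scaled by fragment totals, the dose difference of SLC25A23 was -0.17. The summed FPKM of the 3 carriers was 36.6 ± 0.805 with DMSO (SD, n = 3), 33.4 ± 1.15 at 25 nM and 27.7 ± 1.24 at 50 nM.

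**Figure D3:**
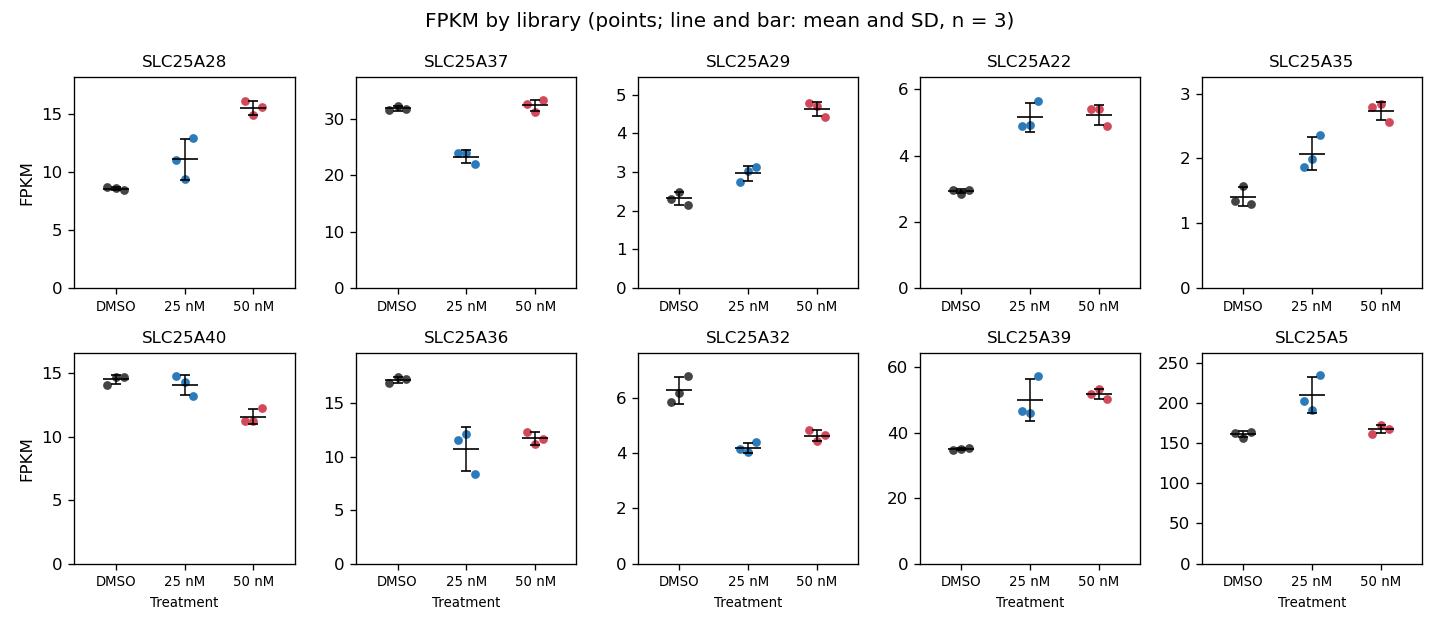
FPKM per library (linear axes from 0) for SLC25A genes with a called log2 fold change of 0.5 or more in size, and for SLC25A37, SLC25A40 and SLC25A5; points are libraries, and lines and bars are mean and SD (n = 3). SLC25A29, SLC25A28 and SLC25A35 step up with each dose, SLC25A22 and SLC25A39 are high at both doses, and SLC25A36 and SLC25A32 are low at both.

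The largest fitted rise at each dose was in an amino acid carrier, SLC25A22 at 25 nM and SLC25A29 at 50 nM. SLC25A29 imports basic amino acids such as lysine and arginine (chr14:100291111-100306547, minus strand in the authors' table, hg38). It measured 2.31, 2.49 and 2.16 FPKM in the DMSO libraries, 2.75, 3.03 and 3.13 at 25 nM and 4.79, 4.71 and 4.44 at 50 nM. Its 3 groups were separate and in the order of dose, with the 50 nM libraries highest. The log2 fold change was 0.34 (SE 0.07, adjusted p = 0.00369) at 25 nM, 0.97 (SE 0.07, adjusted p = 6.75e-06) at 50 nM and 0.63 (SE 0.07, adjusted p = 0.000555) between the doses. AL157871.1, on the opposite strand, covers 9.3% of the exon bases of SLC25A29, and AL157871.6, on the same strand, 1.33%. Neither is among the genes analysed here, so their part in the reads of SLC25A29 was not tested.

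SLC25A22 brings glutamate into the matrix together with protons (chr11:790475-798333, minus strand). It measured 2.97, 2.85 and 2.96 FPKM in the DMSO libraries, 4.9, 4.91 and 5.65 at 25 nM and 5.4, 5.42 and 4.88 at 50 nM. All treated libraries were above those with DMSO and the doses overlapped. It changed by 0.79 (SE 0.07, adjusted p = 3.56e-05) at 25 nM and 0.81 (SE 0.07, adjusted p = 1.41e-05) at 50 nM, and the doses had 0.02 (SE 0.07, adjusted p = 0.82). PANO1, on the opposite strand, covers 10.9% of the exon bases of SLC25A22 and had group means of 0.0726, 0.126 and 0.159 FPKM.

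SLC25A12 and SLC25A13, aralar and citrin, export aspartate in exchange for glutamate and serve the malate-aspartate shuttle. SLC25A12 measured 8.48, 8.09 and 8.43 FPKM in the DMSO libraries, 9.9, 9.03 and 10.001 at 25 nM and 8.89, 8.91 and 9.41 at 50 nM. SLC25A13 measured 14.3, 15.2 and 14.4 FPKM with DMSO, 10.9, 11.9 and 12.1 FPKM at 25 nM and 12.7, 12.1 and 12.6 FPKM at 50 nM. The first was higher and the second lower in every treated library than in any DMSO library. SLC25A12 changed by 0.21 (SE 0.05, adjusted p = 0.00795) at 25 nM and had 0.12 (SE 0.05, adjusted p = 0.0667) at 50 nM. SLC25A13 changed by -0.33 (SE 0.05, adjusted p = 0.000592) and -0.23 (SE 0.05, adjusted p = 0.00313), the second of which was -0.14 with libraries centred on coding genes. SLC25A12 thus held 36.3% ± 1.34 of the pair's summed FPKM with DMSO (SD, n = 3), 45.3% ± 2.20 at 25 nM and 42.1% ± 0.823 at 50 nM.

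Of the other amino acid carriers, SLC25A38, which carries glycine for haem synthesis, passed the test at 25 nM and not at 50 nM. Its means were 9.4 ± 0.791, 11.7 ± 0.932 and 9.74 ± 0.67 FPKM, and its fold changes 0.31 (SE 0.08, adjusted p = 0.0101), 0.05 (SE 0.08, adjusted p = 0.595) and, between the doses, -0.26 (SE 0.08, adjusted p = 0.0354). The dose difference was lost without any one of 5 libraries (replicates 1 and 3 at 25 nM and each at 50 nM), with adjusted p between 0.0518 and 0.110, and was -0.16 (adjusted p = 0.158) when scaled by fragment totals. SLC25A44, a carrier of branched-chain amino acids, had 3.67 ± 0.075, 3.26 ± 0.0609 and 3.49 ± 0.243 FPKM and -0.17 (SE 0.06, adjusted p = 0.0402) at 25 nM, a call that was lost without any 1 of the 6 libraries compared (adjusted p 0.0571 to 0.119). SLC25A15, the ornithine carrier of the urea cycle, had 3.22 ± 0.338, 3.24 ± 0.366 and 2.96 ± 0.265 FPKM and was called in no comparison. Over the class, 4 of 7 tested members rose and 2 fell at 25 nM, and 2 rose and 1 fell at 50 nM, where 59.5% and 65.6% of coding genes were called.

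Among the iron and glutathione carriers, mitoferrin-2 rose with dose while mitoferrin-1 fell at 25 nM only. SLC25A28, mitoferrin-2, is the widely expressed iron importer (chr10:99610522-99620609, minus strand). It measured 8.67, 8.62 and 8.41 FPKM in the DMSO libraries, 11, 9.39 and 12.9 at 25 nM and 16.1, 14.9 and 15.6 at 50 nM. Its groups were separate and rose with dose, although the 25 nM libraries spread widely. It changed by 0.36 (SE 0.10, adjusted p = 0.0117), 0.85 (SE 0.10, adjusted p = 6.86e-05) and, between the doses, 0.49 (SE 0.10, adjusted p = 0.00467). SLC25A37, mitoferrin-1, is best known from erythroid cells and measured 31.5, 32.4 and 31.8 FPKM with DMSO, 24, 23.9 and 21.9 FPKM at 25 nM and 32.7, 31.3 and 33.3 FPKM at 50 nM. All 25 nM libraries lay below the other 6, which overlapped. SLC25A37 changed by -0.45 (SE 0.04, adjusted p = 6.64e-05) at 25 nM, had 0.02 (SE 0.04, adjusted p = 0.658) at 50 nM and differed between the doses by 0.48 (SE 0.04, adjusted p = 0.000282). SLC25A28 made up 21.2% ± 0.342 of the summed FPKM of the pair with DMSO (SD, n = 3), 32.2% ± 4.47 at 25 nM and 32.4% ± 0.571 at 50 nM.

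The glutathione carrier SLC25A39 rose at both doses, and its paralogue SLC25A40 fell at 50 nM. SLC25A39 (chr17:44319625-44324870, minus strand) measured 34.8, 35 and 35.4 FPKM in the DMSO libraries, 46.5, 46 and 57.5 at 25 nM and 52, 53.4 and 50.4 at 50 nM. All treated libraries were above those with DMSO, and replicate 3 at 25 nM was the highest. The fold changes were 0.50 (SE 0.08, adjusted p = 0.000627) and 0.57 (SE 0.08, adjusted p = 0.000215), with 0.06 (SE 0.08, adjusted p = 0.565) between the doses. SLC25A40 measured 14.1, 14.7 and 14.7 FPKM with DMSO, 14.8, 14.3 and 13.2 FPKM at 25 nM and 11.2, 11.2 and 12.3 FPKM at 50 nM. Its 50 nM libraries lay below all others, at -0.32 (SE 0.05, adjusted p = 0.000804) against DMSO and -0.28 (SE 0.05, adjusted p = 0.00494) against 25 nM, while 25 nM against DMSO gave -0.04 (SE 0.05, adjusted p = 0.528). Scaled by fragment totals the dose difference was -0.18. SLC25A39 held 70.7% ± 0.426, 77.9% ± 3.00 and 81.8% ± 1.19 of the pair's summed FPKM in the 3 groups. The summed FPKM of the 4 iron and glutathione carriers was 90.03 ± 0.883, 98.5 ± 6.23 and 112 ± 0.558 (SD, n = 3).

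**Figure D4:**
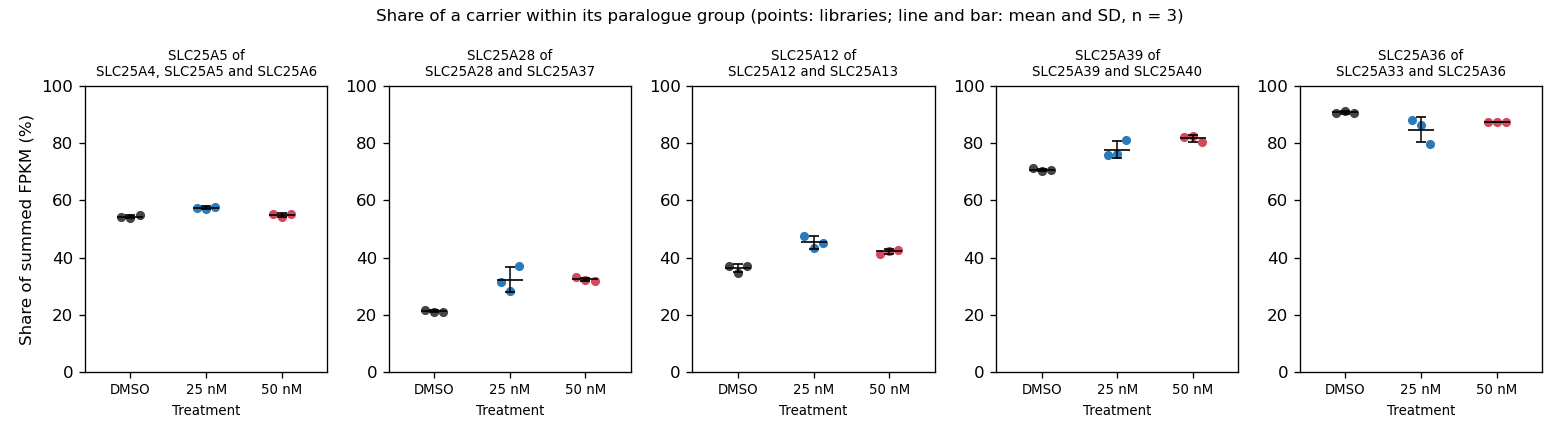
Share of 1 carrier in the summed FPKM of its paralogue group, in percent, with points for libraries and bars for mean and SD (n = 3). SLC25A28, SLC25A12 and SLC25A39 hold larger shares in every treated library than in any DMSO library, and SLC25A36 a smaller one.

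The largest fitted fall at each dose was that of SLC25A36, one of the carriers of nucleotides, coenzymes and vitamins. SLC25A36 carries pyrimidine nucleotides into the matrix, where they serve RNA and DNA synthesis (chr3:140941830-140979933, plus strand). It measured 16.9, 17.4 and 17.2 FPKM in the DMSO libraries, 11.6, 12.1 and 8.4 at 25 nM and 12.3, 11.1 and 11.7 at 50 nM. Every treated library was lower than every DMSO library, and replicate 3 at 25 nM was the lowest. It changed by -0.69 (SE 0.12, adjusted p = 0.00121) and -0.55 (SE 0.12, adjusted p = 0.00317), with 0.14 (SE 0.12, adjusted p = 0.384) between the doses. Its paralogue SLC25A33 measured 1.75, 1.67 and 1.77 FPKM with DMSO, 1.53, 1.93 and 2.11 FPKM at 25 nM and 1.73, 1.6 and 1.68 FPKM at 50 nM and overlapped between groups, with 0.09 (SE 0.11, adjusted p = 0.539) and -0.05 (SE 0.11, adjusted p = 0.714). SLC25A36 made up 90.8% ± 0.370, 84.8% ± 4.37 and 87.5% ± 0.134 of the pair's summed FPKM (SD, n = 3).

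SLC25A32 carries folate or the flavin cofactor FAD. It measured 5.83, 6.16 and 6.79 FPKM in the DMSO libraries, 4.13, 4.04 and 4.39 at 25 nM and 4.82, 4.43 and 4.64 at 50 nM. Both treated groups were below DMSO without overlap, at -0.57 (SE 0.07, adjusted p = 0.00015) and -0.43 (SE 0.07, adjusted p = 0.000464), and the doses had 0.14 (SE 0.07, adjusted p = 0.13). A readthrough gene on the same strand, AC012213.5, shares 69.7% of its exon bases and is not among the genes analysed here, so its transcripts cannot be told apart from those of SLC25A32. DCAF13, which covers 11.1% from the other strand, had a log2 fold change of 0.27 at 25 nM and 0.32 at 50 nM.

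SLC25A16, linked to coenzyme A supply, and SLC25A51, the NAD carrier, were lower at 25 nM and back near DMSO at 50 nM. SLC25A16 had group means of 5.42 ± 0.167, 4.16 ± 0.116 and 5.29 ± 0.168 FPKM and changed by -0.37 (SE 0.05, adjusted p = 0.000274) at 25 nM and 0.34 (SE 0.05, adjusted p = 0.00128) between the doses. SLC25A51 had 2.07 ± 0.103, 1.59 ± 0.144 and 1.99 ± 0.0567 FPKM and changed by -0.36 (SE 0.08, adjusted p = 0.00557) and 0.31 (SE 0.08, adjusted p = 0.0196). At 50 nM against DMSO the 2 genes had -0.03 and -0.05 (adjusted p = 0.568 and 0.617). The dose difference of SLC25A51 was lost without replicate 2 at 25 nM (adjusted p = 0.0551) or replicate 3 at 50 nM (0.0575). Its sequence shares 17.6% of its 50-base words with other genes, SLC25A52 among them, so some reads could belong to a copy.

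SLC25A17, the peroxisomal carrier of coenzyme A, FAD and NAD, had 4.72 ± 0.42, 5.45 ± 0.239 and 4.69 ± 0.314 FPKM and 0.21 (SE 0.08, adjusted p = 0.0467) at 25 nM, a call lost without DMSO replicate 1 or 2 or 25 nM replicate 1 or 3 (adjusted p 0.0661 to 0.165). SLC25A26, which imports the methyl donor S-adenosylmethionine, had 3.36 ± 0.148, 3.64 ± 0.217 and 3.08 ± 0.112 FPKM and was called only between the doses, at -0.23 (SE 0.06, adjusted p = 0.0209). That call was lost without replicate 2 at 25 nM (adjusted p = 0.0564) or replicate 1 at 50 nM (0.0747), and the value was -0.14 when scaled by fragment totals. LRIG1, on the opposite strand, covers 15.5% of the exon bases of SLC25A26 and had group means of 1.80, 1.575 and 1.42 FPKM. It was called lower at 50 nM (limma, log2 fold change -0.32, adjusted p = 0.0286), and its part in the reads of SLC25A26 was not tested. SLC25A42, a carrier of coenzyme A, had 0.785 ± 0.129, 0.629 ± 0.0665 and 0.631 ± 0.0819 FPKM and was called in none. The summed FPKM of the 9 carriers of the class was 41.9 ± 0.726, 33.1 ± 1.14 and 34.6 ± 0.977 (SD, n = 3).

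Of the citrate, dicarboxylate and oxoglutarate carriers, only SLC25A10 passed the test. SLC25A10 exchanges malate and succinate for phosphate. It had 3.2 ± 0.176, 4.31 ± 0.584 and 3.98 ± 0.277 FPKM, with 0.41 (SE 0.10, adjusted p = 0.00636) at 25 nM and 0.30 (SE 0.10, adjusted p = 0.0213) at 50 nM. The call at 50 nM was lost without DMSO replicate 2 or 50 nM replicate 1 or 2 (adjusted p = 0.0758, 0.0620 and 0.0728). A readthrough gene, AC139530.2, shares 46.6% of its exon bases on the same strand and is not among the genes analysed here. SLC25A1, which exports citrate for lipid synthesis, had 30.7 ± 1.07, 32.1 ± 2.44 and 28.4 ± 2.1 FPKM and was not called. SLC25A11, which exchanges oxoglutarate for malate in the shuttle, had 23 ± 0.699, 24.1 ± 2.67 and 21.2 ± 0.736 FPKM, with 0.06 (SE 0.07, adjusted p = 0.534) and -0.12 (SE 0.07, adjusted p = 0.179). RNF167, on the opposite strand, covers 9.14% of the exon bases of SLC25A11 and had group means of 26.2, 35.0 and 29.6 FPKM.

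SLC25A20 brings acylcarnitines into the matrix for fatty acid oxidation and was higher in both treated groups. It had 3.98 ± 0.22, 5.5 ± 0.473 and 4.89 ± 0.563 FPKM, with 0.45 (SE 0.09, adjusted p = 0.00302) at 25 nM and 0.28 (SE 0.09, adjusted p = 0.0246) at 50 nM. The second call was lost without DMSO replicate 2 or 50 nM replicate 2 or 3 (adjusted p = 0.0868, 0.0519 and 0.0850). CPT1A and CPT2, the carnitine palmitoyltransferases on either side of this step, moved the other way. CPT1A had 15.2 ± 0.247, 13 ± 0.467 and 13.8 ± 0.478 FPKM, with -0.22 (SE 0.04, adjusted p = 0.00211) and -0.14 (SE 0.04, adjusted p = 0.0178). CPT2 had 1.72 ± 0.0508, 1.25 ± 0.0744 and 1.2 ± 0.225 FPKM, with -0.42 (SE 0.13, adjusted p = 0.0196) and -0.50 (SE 0.13, adjusted p = 0.0078).

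SLC25A14 and SLC25A30 resemble the uncoupling proteins, which let protons or anions cross the inner membrane. SLC25A30, known from kidney, had 5.34 ± 0.0161, 6.37 ± 0.412 and 5.53 ± 0.412 FPKM, with 0.25 (SE 0.07, adjusted p = 0.0114) at 25 nM and 0.05 (SE 0.07, adjusted p = 0.553) at 50 nM. Its dose difference of -0.20 (SE 0.07, adjusted p = 0.0432) was lost without replicate 1 or 2 at either dose (adjusted p 0.0727 to 0.131), and was -0.11 when scaled by fragment totals. SLC25A14 had 1.79 ± 0.302, 1.87 ± 0.091 and 1.97 ± 0.172 FPKM and was not called.

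Among carriers with no settled substrate, SLC25A35 rose with dose (chr17:8287763-8295343, minus strand). It measured 1.35, 1.57 and 1.3 FPKM in the DMSO libraries, 1.87, 1.99 and 2.36 at 25 nM and 2.79, 2.84 and 2.56 at 50 nM. None of its groups overlapped. It changed by 0.53 (SE 0.10, adjusted p = 0.00263), 0.91 (SE 0.10, adjusted p = 7.7e-05) and, between the doses, 0.39 (SE 0.10, adjusted p = 0.0204), the last of which was lost without replicate 1 or 2 at either dose (adjusted p 0.0571 to 0.0682). RANGRF, on the other strand, covers 33.2% of its exon bases and had group means of 0.0387, 0.120 and 0.121 FPKM. Library strandedness is not given in the sources used here, so reads of such partners may be counted in the carrier.

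SLC25A43 had 6.54 ± 0.128, 7.14 ± 0.659 and 5.59 ± 0.27 FPKM, with 0.12 (SE 0.07, adjusted p = 0.169) at 25 nM, -0.22 (SE 0.07, adjusted p = 0.0199) at 50 nM and -0.35 (SE 0.07, adjusted p = 0.00557) between the doses. The 50 nM call was lost in 5 of 14 alternatives, with adjusted p up to 0.127. It was lost without DMSO replicate 1 or 2 or 50 nM replicate 1 (adjusted p = 0.0577, 0.0588 and 0.0705). It was also lost when scaled by fragment totals and with libraries centred on coding genes, where the value was -0.14. SLC25A46, which acts in mitochondrial shape and fission, had 7.78 ± 0.19, 7.55 ± 0.563 and 6.57 ± 0.0454 FPKM, with -0.24 (SE 0.06, adjusted p = 0.00488) at 50 nM and -0.19 (SE 0.06, adjusted p = 0.0263) between the doses. With libraries centred on coding genes its 50 nM value was -0.15 (adjusted p = 0.0322). The dose difference of SLC25A46 was lost without replicate 1 or 2 at 25 nM or any of the 3 libraries at 50 nM (adjusted p 0.0606 to 0.0753), and was -0.10 when scaled by fragment totals. SLC25A45 had 0.722 ± 0.0472, 0.656 ± 0.0315 and 0.664 ± 0.00875 FPKM and was not called.

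Summed over all 41 genes, the family had 694, 679.7 and 691 FPKM in the DMSO libraries, 726, 715 and 813 at 25 nM and 673, 702 and 683 at 50 nM. All 25 nM libraries were above the other 6, with replicate 3 the highest, and the other groups overlapped. The ratio of means to DMSO was 1.09 at 25 nM, and 1.05 without that replicate. At 50 nM it was 0.997, and 1.05 when scaled by fragment totals. Without SLC25A5, the ratio at 25 nM was 1.03. These sums are a description with no test.

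The carriers' fold changes against DMSO followed gene length and GC content, as those of other coding genes did. Across the 37 tested carriers, Spearman's rho between log2 fold change and length was -0.49 at 25 nM and -0.35 at 50 nM, beside -0.37 and -0.25 over 11722 coding genes. With GC content it was 0.41 and 0.48 over the carriers, beside 0.26 and 0.31 over the 11685 coding genes with a value. Between the doses rho with length was 0.18 over the carriers and 0.15 over coding genes, and with GC content 0.20 and 0.18. These correlations are across genes, which share the same libraries and are not independent. In the shortest quartile of coding genes, under 3268 bases, 6 of 11 carriers rose and none fell at 25 nM. In the longest quartile, over 7426 bases, 1 of 7 rose and 4 fell. At 50 nM 3 of 11 rose and 1 fell in the shortest quartile, and 1 of 7 rose and 3 fell in the longest. Over coding genes of all lengths, 28% were called higher and 31.6% lower at 25 nM, and 25.7% and 39.9% at 50 nM. The shares called within a quartile were not computed, so these counts are a description only. The medians of coding genes at 25 nM were 0.19, 0.02, -0.08 and -0.21 from the shortest to the longest quartile, and 0.08, -0.08, -0.14 and -0.23 at 50 nM. SLC25A29, the carrier with the largest rise, is 7451 bases long and lies just inside the longest quartile. SLC25A5, with 1500 bases, is the shortest, and SLC25A36, with 9277 bases, the longest of the tested carriers. The GC content of the transcript was 58.4% in SLC25A29, 49.45% in SLC25A5 and 37.4% in SLC25A36. The part of length or GC content in the change of any 1 carrier was not tested.

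**Figure D5:**
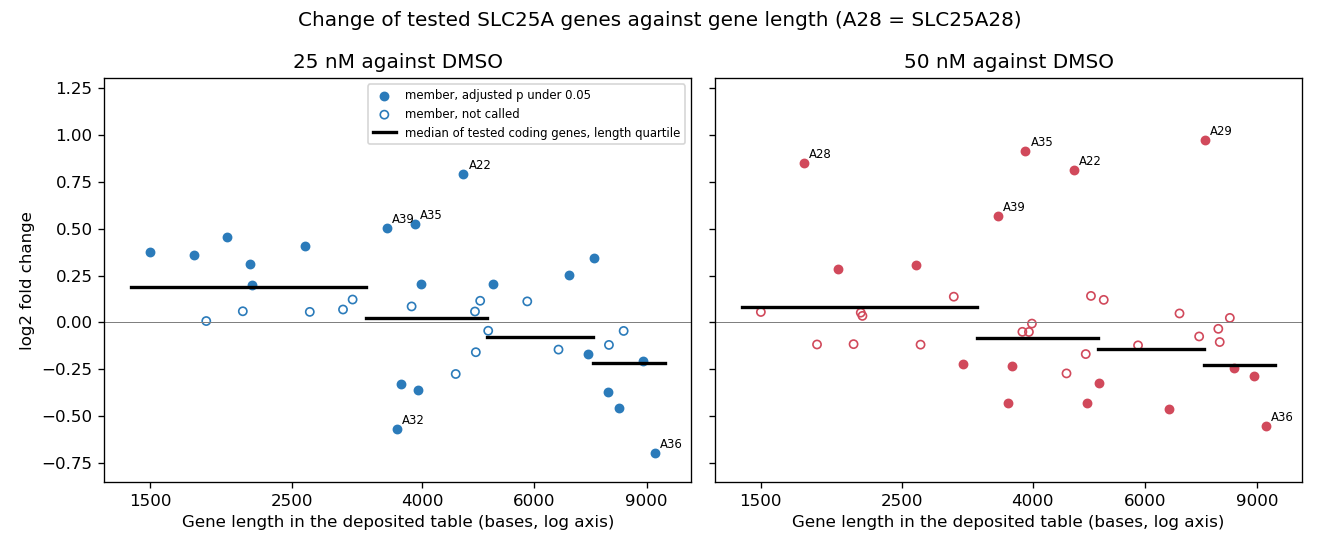
Log2 fold change at 25 nM and at 50 nM against gene length in bases (log axis) for tested SLC25A genes; filled points have an adjusted p under 0.05, and black lines are medians of tested coding genes in each length quartile. The medians fall from 0.19 to -0.21 at 25 nM, and SLC25A29 lies far above the median of its quartile at 50 nM.

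Other transport proteins of the mitochondrial membranes were measured beside the carriers. Of 25 listed genes 23 were tested, and 10 rose and 5 fell at 25 nM, 6 rose and 9 fell at 50 nM, and 4 were higher and 7 lower at 50 nM than at 25 nM. The shares of coding genes called in these comparisons were 59.5%, 65.6% and 37.5%, and of all genes 52%, 60.7% and 33.5%. ABCB8, an ABC transporter of the inner membrane, had 4.59 ± 0.208, 6.71 ± 0.286 and 7.7 ± 0.23 FPKM, with 0.54 (SE 0.05, adjusted p = 6.38e-05) and 0.73 (SE 0.05, adjusted p = 5.42e-06). SFXN5 and SFXN3 are sideroflexins, a separate family of inner membrane transporters. SFXN5 had 0.67 (SE 0.10, adjusted p = 0.000449) and 0.74 (SE 0.10, adjusted p = 0.000175), and SFXN3 had -0.28 (SE 0.03, adjusted p = 0.000206) and -0.28 (SE 0.03, adjusted p = 0.000119). LETM1, which exchanges cations for protons, had 0.52 (SE 0.06, adjusted p = 9.83e-05) at 50 nM. The pyruvate carrier subunit MPC2 had 27.5 ± 0.42, 38.5 ± 2.18 and 30.9 ± 3.97 FPKM, with 0.48 (SE 0.08, adjusted p = 0.00115) and 0.16 (SE 0.08, adjusted p = 0.113), and its partner MPC1 had 0.19 (SE 0.11, adjusted p = 0.168) and 0.17 (SE 0.11, adjusted p = 0.204).

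Of 5 family members listed under other names, 3 were tested. At 25 nM 1 was called, beside 52% of all genes and 59.5% of coding genes. At 50 nM 0 were called, beside 60.7% and 65.6%, and between the doses 0, beside 33.5% and 37.5%. With 3 genes these counts are a description only. The called gene, MTCH2, an outer membrane protein, had 0.22 (SE 0.06, adjusted p = 0.0175) at 25 nM and 0.10 (SE 0.06, adjusted p = 0.192) at 50 nM. UCP2, an uncoupling protein, had 0.915 ± 0.0869, 1.01 ± 0.0714 and 1.004 ± 0.223 FPKM and was not called.

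Carrier precursors are handed from the receptor TOMM70 through small chaperones of the intermembrane space to the TIMM22 insertase. Of 9 genes of this route, 5 rose and 2 fell at 25 nM, and 4 rose and 1 fell at 50 nM, where 59.5% and 65.6% of coding genes were called. The receptor fell at both doses, while the chaperones TIMM13, TIMM10, TIMM9 and TIMM8A rose. TOMM70 had 19.2 ± 0.537, 15.1 ± 0.706 and 12.2 ± 0.349 FPKM, with -0.35 (SE 0.05, adjusted p = 0.000272), -0.65 (SE 0.05, adjusted p = 4.89e-06) and -0.30 (SE 0.05, adjusted p = 0.00164) between the doses. TIMM13, TIMM10 and TIMM9 had 0.75 (SE 0.10, adjusted p = 0.000245), 0.53 (SE 0.09, adjusted p = 0.00136) and 0.35 (SE 0.05, adjusted p = 0.000278) at 25 nM. At 50 nM TIMM13 had 0.63 (SE 0.10, adjusted p = 0.000426), TIMM10 0.47 (SE 0.09, adjusted p = 0.0019) and TIMM9 0.18 (SE 0.05, adjusted p = 0.00924). TIMM10B, the other gene that fell at 25 nM, had -0.31 (SE 0.11, adjusted p = 0.0378). TIMM22 itself had 8.07 ± 0.137, 9.66 ± 0.556 and 8.3 ± 0.505 FPKM, with 0.26 (SE 0.06, adjusted p = 0.00515), 0.04 (SE 0.06, adjusted p = 0.576) and -0.22 (SE 0.06, adjusted p = 0.0196) between the doses. These lists were chosen with earlier results of the data known, so their counts describe and support nothing.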

How the data were processed

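RNA from 9 ACHN libraries was sequenced, 3 per group. Each group was read from the sample titles. The authors deposited FPKM for 30673 genes and a table of log2 FPKM with symbol, position and length for 18859 of them, per the file headers; these are the genes above 0 in all 9 libraries. The build is hg38 per the submitters' processing notes; the aligner, counting program, annotation release and strandedness are not given in the sources used here. FPKM times length was a whole number of fragments for 100% of the 18859 genes, within 0.01, which gave 24365472 to 29245674 fragments per library.

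The 15541 genes that reached 0.5 FPKM in 3 or more libraries were fitted with limma 3.58.1 in R 4.3.3 on log2(FPKM + 0.1), with trend and robust settings, group as the only covariate and all 9 libraries. Tests were two-sided and p-values adjusted by Benjamini-Hochberg over all genes tested; calls were at an adjusted p under 0.05. The pseudocount understates changes of low genes. The fitting code was first run on simulated data in which few genes changed, unlike these data, so that run supports no result here. Of the members, 38 of 41 have the same start and end in GENCODE 29, from which overlaps and GC content were taken; start regions came from RefSeq.

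The members, gene lists and substrate classes were chosen with earlier results of these data known. Members are named except 1, which is counted but not reported here; each library's value is given for members called with a log2 fold change of 0.5 or more in size, the 5 most abundant with DMSO and the paralogue groups. From the other lists, up to 4 members with the smallest p and UCP2, MPC1, MPC2, MTCH2 and TIMM22 were named; CPT1A and CPT2 were added after their values were seen. Alternatives varied the pseudocount, filter, scaling, fit, replicate block and single libraries.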

Additional observations from a re-analysis of the deposited data

How the results depend on the processing

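No called carrier changed direction under the 14 alternatives of its comparison. Calls held in every alternative for 18 of 22 carriers at 25 nM, 14 of 17 at 50 nM and 8 of 15 between the doses. The number lower at 50 nM than at 25 nM, 9, became 4 when scaled by fragment totals and 5 when only the 6 libraries compared were fitted, and ranged from 5 to 8 with single libraries left out. With single libraries left out, 12 to 14 carriers were higher and 7 to 8 lower at 25 nM, 6 to 9 higher and 8 to 9 lower at 50 nM, and 4 to 7 higher between the doses. Scaling by fragment totals moved the family's summed ratio at 50 nM from 0.997 to 1.05, and in the transporter and import lists the number lower at 50 nM from 10 to 6 and the number higher between doses from 5 to 8. Replicate numbers did not pair the libraries: same-number correlations of deviations ran from -0.12 to 0.14. With the replicate block, 14 carriers were higher and 7 lower at 25 nM, 8 and 9 at 50 nM, and 6 and 10 between the doses. Depth limits SLC25A18, SLC25A21 and SLC25A34, which had 3 to 30 fragments per library.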

Other observations

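The antisense gene SLC25A25-AS1, which is not a carrier, rose with dose. It measured 0.405, 0.462 and 0.509 FPKM in the DMSO libraries, 1.22, 0.896 and 1.15 at 25 nM and 2.07, 2.05 and 1.83 at 50 nM. Its 3 groups did not overlap. In limma its log2 fold change was 1.08 (SE 0.14, adjusted p = 2.44e-04) at 25 nM, 1.90 (SE 0.14, adjusted p = 5.67e-06) at 50 nM and 0.82 (SE 0.14, adjusted p = 0.00246) between the doses. It covers 13.5% of the exon bases of SLC25A25, the calcium-regulated carrier that was called in no comparison, and reads of the overlap cannot be assigned without strand. It was chosen after its values were seen.

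SLC25A2, SLC25A27, SLC25A41 and SLC25A47 fell outside the matrix, with at most 0.0894 FPKM in any library. SLC25A31, SLC25A48 and SLC25A52 were not analysed here.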
